A study of Mus musculus with 69 samples.

Results

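Transforming growth factor beta (TGF-beta) and platelet-derived growth factor (PDGF) are the ligand families best known for driving scar formation in the kidney. The 9 genes described here are the ligands Tgfb1, Tgfb2 and Tgfb3, their signalling receptors Tgfbr1 and Tgfbr2, the ligands Pdgfa and Pdgfb, and the receptors Pdgfra and Pdgfrb. They were taken by symbol from the 24523 gene symbols with counts. No measured value entered the rule, but earlier results of these data were known when the list was chosen. All 9 passed the filter on low counts in every comparison.

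RNA of perfused whole kidneys was sequenced from female NZB/W F1 mice, a hybrid strain that develops lupus nephritis spontaneously. There were 30 untreated young mice aged 12 weeks, 27 nephritic mice aged 30 to 45 weeks and 8 remission mice aged 36 to 50 weeks. Nephritic mice were harvested 2 to 3 weeks after proteinuria reached 300 mg/dl, with blood urea nitrogen under 25 mg/dl. Remission mice had been given cyclophosphamide, CTLA4Ig and anti-CD40L shortly after proteinuria became fixed, and were harvested after 8 weeks with proteinuria of 30 mg/dl or less. At Zeitgeber time (ZT) 0, 4, 8, 12, 16 and 20, where ZT0 is lights on, the young groups held 7, 4, 4, 7, 4 and 4 mice and the nephritic groups 7, 4, 4, 6, 3 and 3. Remission mice came from ZT0 and ZT12, 4 each. Age and disease cannot be told apart between young and nephritic mice, nor can treatment, age and library set between remission mice and the others. Each library was 1 mouse, so p-values measure the spread between mice.

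Total counts ranged from 25257530 to 48075977 in young and nephritic mice and from 13311278 to 21849912 in remission mice. Proximal tubule markers summed to between 7110 and 12500 CPM (read counts relative to a library size scaled by edgeR's TMM factors) in young mice and to between 1220 and 9630 CPM in nephritic mice. The libraries formed 3 sets: set 1 (6 young and 5 nephritic mice, ZT0 and ZT12), set 2 and a set of the remission mice. The last, called the remission run here, also held repeat libraries of 2 young and 2 nephritic mice. Sets were read from the titles and are not named in the labels, so how they differed in preparation or sequencing is not known. Arntl, the clock gene that encodes Bmal1, did not match the time label in a pair of mice. It was 27.1 CPM in remission ZT12 replicate 4, against 3.19 to 4.9 CPM in the other remission ZT12 mice and 23.1 to 28.8 CPM at ZT0, and it was 18 CPM in nephritic ZT8 replicate 3. The repeat library of nephritic ZT12 replicate 6 was nearer to another mouse, nephritic ZT4 replicate 1 (r = 0.9938 over genes), than to its own original library (r = 0.9694), whereas the other 3 repeats were nearest to their own originals. The main comparisons were also computed without each mouse whose Arntl did not match. Fits on the run were also computed without the repeat library of nephritic ZT12 replicate 6.

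TGF-beta ligands are secreted in a latent complex and, once released, bind Tgfbr2, a kinase receptor that recruits and phosphorylates Tgfbr1, which in turn activates the transcription factors Smad2 and Smad3. In kidney, TGF-beta is known for inducing collagen, fibronectin and other matrix genes. PDGF chains form dimers: the A chain acts through Pdgfra, and the B chain acts mainly through Pdgfrb, which mesangial cells and pericytes carry and need for their recruitment to capillaries.

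In GRCm38, the build of the labels (mm10), Tgfb1 lies on chromosome 7 (25687002 to 25705077, plus strand), Tgfb2 on chromosome 1 (186622792 to 186705989, minus strand) and Tgfb3 on chromosome 12 (86056745 to 86079041, minus strand). Tgfbr1 is on chromosome 4 (47353222 to 47414931, plus strand) and Tgfbr2 on chromosome 9 (116084293 to 116175360, minus strand). Pdgfa is on chromosome 5 (138976014 to 138997370, minus strand), as is Pdgfra (75152292 to 75198215, plus strand), and Pdgfb is on chromosome 15 (79995874 to 80014977, minus strand). Annotated transcripts of the opposite strand overlap Tgfb2 (Gm29491), Tgfb3 (Gm37804 and Gm48008), Pdgfa (6330403L08Rik) and Pdgfra (Gm42802 and Gm42803). The sources do not say that reads were counted by strand, so reads of these 4 genes and of their overlapping partners cannot be told apart.

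The 250 bases before the annotated start are shown for 3 members that were higher in nephritic mice and that differ in motif content, since the series is about the clock and clock proteins bind E-boxes. Sequences are from RefSeq (GRCm38.p6), 5′ to 3′ on the strand of the gene, for Tgfb1 at chr7:25686752-25687001, Tgfb2 at chr1:186705990-186706239 and Tgfbr2 at chr9:116175364-116175613. Capitals mark matches to any of 4 motifs, searched on both strands, which did not overlap each other here. An E-box was searched as CACGTG in each promoter. For the TATA box the letters were TATAAA in the same window. The GC box was taken as GGGCGG wherever it occurred. Matches to the CCAAT box needed the letters of its name.
Tgfb1: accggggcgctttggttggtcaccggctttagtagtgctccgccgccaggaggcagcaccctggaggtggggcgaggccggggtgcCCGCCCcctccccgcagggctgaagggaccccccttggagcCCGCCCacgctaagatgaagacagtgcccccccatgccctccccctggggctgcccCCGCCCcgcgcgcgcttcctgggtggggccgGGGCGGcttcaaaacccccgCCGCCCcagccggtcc
Tgfb2: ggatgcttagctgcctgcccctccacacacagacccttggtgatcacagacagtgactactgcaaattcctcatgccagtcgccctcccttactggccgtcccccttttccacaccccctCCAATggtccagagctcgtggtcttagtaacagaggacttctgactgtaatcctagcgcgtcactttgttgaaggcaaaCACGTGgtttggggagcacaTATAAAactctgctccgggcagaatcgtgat
Tgfbr2: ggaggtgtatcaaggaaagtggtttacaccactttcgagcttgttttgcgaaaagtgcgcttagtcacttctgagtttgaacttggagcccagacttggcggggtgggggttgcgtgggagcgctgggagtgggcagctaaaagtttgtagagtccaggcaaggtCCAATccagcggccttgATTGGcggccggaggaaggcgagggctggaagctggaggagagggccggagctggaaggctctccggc

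Tgfb1 had 5 GC boxes and 75.2% G and C. Tgfb2 had an E-box whose match began 51 bases before the start, a TATA box 31 bases before it and a CCAAT box 130 bases before it, with 53.6% G and C. Tgfbr2 had 2 CCAAT boxes, 85 and 68 bases before the start, and 58.4% G and C. Among all 32851 promoters of the same length, 6.02% held an E-box, 12.4% a TATA box, 32.7% a GC box and 33.8% a CCAAT box. Tgfb2 was the only one of the 6 members with a promoter sequence in the table that held an E-box. A match is a description of these letters and not evidence of binding.

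Per kb of merged exons, median levels in young mice were highest for both TGF-beta receptors, at 10 CPM per kb for Tgfbr2 and 9.76 for Tgfbr1. Pdgfrb (6.61 CPM per kb), Pdgfb (6.46), Pdgfa (4.26), Tgfb1 (3.01) and Pdgfra (2.78) followed, and Tgfb3 (0.851) and Tgfb2 (0.591) were lowest. Median levels in nephritic mice had nearly the same order, with Pdgfb (11.2 CPM per kb) above Pdgfrb (8.8) and Tgfb1 (6.45) above Pdgfa (5.03). Tgfb2 and Tgfb3 rest on few reads, from 54 counts for Tgfb2 and 28 counts for Tgfb3 in the lowest young mouse.

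**Figure D1:**
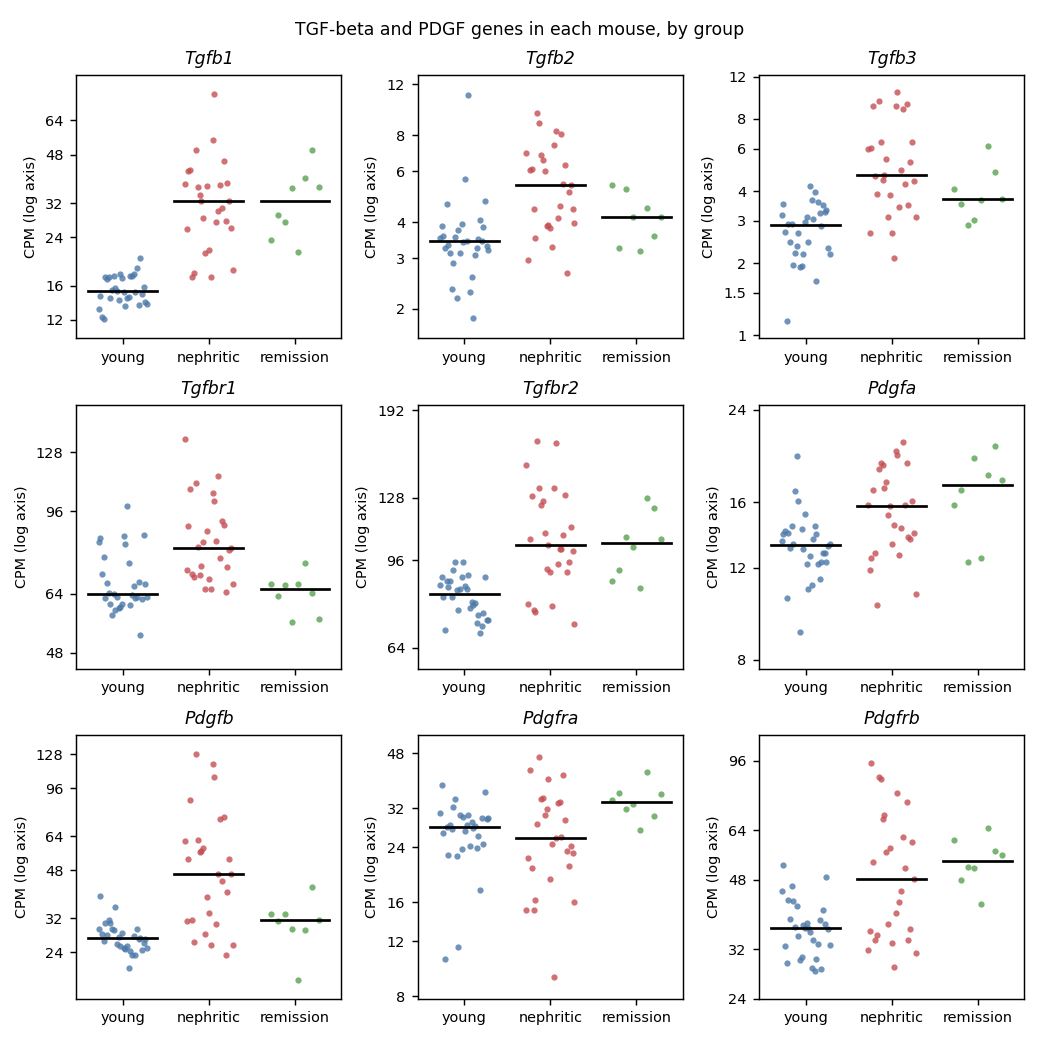
Level of each of the 9 genes in CPM on a log axis, 1 point per mouse (30 young, 27 nephritic, 8 remission), with a bar at the median of each group. For Tgfb1, 23 of 27 nephritic and 8 of 8 remission mice lie above the highest young mouse, whereas Pdgfb in remission mice (median 31.4 CPM) lies near the young median (26.9 CPM).

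Nephritic kidneys had higher levels of all 3 TGF-beta ligands, both TGF-beta receptors, both PDGF ligands and Pdgfrb than young kidneys, and Pdgfra was the member not called. The differences averaged over the day were largest for Tgfb1 (2.1-fold), Tgfb3 (1.93-fold) and Pdgfb (1.9-fold) and smallest for Pdgfa (1.15-fold). By edgeR's quasi-likelihood test with Benjamini-Hochberg adjustment over 17521 genes, with time point and set as covariates, 8 of 9 members were called higher (adjusted p of at most 0.05). Among all genes tested, 28.1% were called higher and 33.9% lower, with a median log2 change of -0.03.

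Tgfb1, the main TGF-beta ligand of injured kidney, ranged from 12.1 to 20.2 CPM (median 15.2) in young mice and from 17.2 to 79.7 CPM (median 32.5) in nephritic mice. All 27 nephritic mice lay above the young median and 23 above the highest young mouse, so the groups overlapped only at the lower end of the nephritic range. The log2 change was 1.07 (SE 0.10, edgeR adjusted p = 2.94e-13).

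Tgfb3 ranged from 1.14 to 4.18 CPM (median 2.88) in young and from 2.1 to 10.4 CPM (median 4.67) in nephritic mice. Of 27 nephritic mice, 18 were above the highest young mouse. Its log2 change was 0.95 (SE 0.12, edgeR adjusted p = 3.62e-09).

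Tgfb2, the lowest of the ligands per kb of exon, ranged in CPM from 1.86 to 11.0 (median 3.42) in young and from 2.66 to 9.58 CPM (median 5.38) in nephritic mice. The highest value belonged to a young mouse, ZT12 replicate 5, and the next young mouse at ZT12 had 5.63 CPM. Thus 0 of 27 nephritic mice exceeded the young range, although 24 were above the young median. The log2 change was 0.59 (SE 0.12, edgeR adjusted p = 5.13e-05).

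The TGF-beta receptors had smaller log2 changes than the ligands, a difference between genes that was not tested. Tgfbr2 ranged from 68.4 to 95.4 CPM (median 82.2) in young and from 71.5 to 167 CPM (median 103) in nephritic mice, 17 of which lay above the young range. Its log2 change was 0.40 (SE 0.06, edgeR adjusted p = 3.27e-07). Tgfbr1 ranged from 52.2 to 98.4 CPM (median 63.8) in young and from 64.7 to 137 CPM (median 80.0) in nephritic mice. All 27 nephritic mice were above the young median but only 6 above the young range, and the log2 change was 0.29 (SE 0.05, edgeR adjusted p = 2.53e-06). Tgfbr1 also differed between sets within young mice of ZT0 and ZT12, at 70.4 to 98.4 CPM in set 1 and 60.5 to 76.5 CPM in set 2. In set 2 alone, its log2 change was 0.33 (edgeR adjusted p = 9.98e-07).

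Among the PDGF genes, Pdgfb, which endothelial cells and platelets are known to make, had the largest log2 change. It ranged from 20.9 to 38.7 CPM (median 26.9) in young and from 23.4 to 128 CPM (median 46.6) in nephritic mice, with 17 of 27 above the young range. The log2 change was 0.92 (SE 0.13, edgeR adjusted p = 2.47e-08). Nephritic mice varied widely in this gene: the SD of its log2 level was 0.70, against 0.18 in young mice.

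Pdgfa ranged from 9.06 to 19.6 CPM (median 13.3) in young and from 10.2 to 20.8 CPM (median 15.7) in nephritic mice. The ranges nearly coincided, with 3 of 27 nephritic mice above the young range and 21 above the young median. Its log2 change of 0.20 (SE 0.06, edgeR adjusted p = 0.00234) was the smallest of those called.

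The PDGF receptors differed from each other. Pdgfrb ranged from 28.2 to 52.2 CPM (median 36.2) in young and from 28.8 to 94.7 CPM (median 48.2) in nephritic mice, 12 of which were above the young range. Its log2 change was 0.48 (SE 0.10, edgeR adjusted p = 4.15e-05). Pdgfra ranged from 10.5 to 37.9 CPM (median 27.9) in young and from 9.23 to 46.5 CPM (median 25.7) in nephritic mice, and 12 of 27 were above the young median. Its log2 change was -0.03 (SE 0.12, edgeR adjusted p = 0.832).

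**Figure D2:**
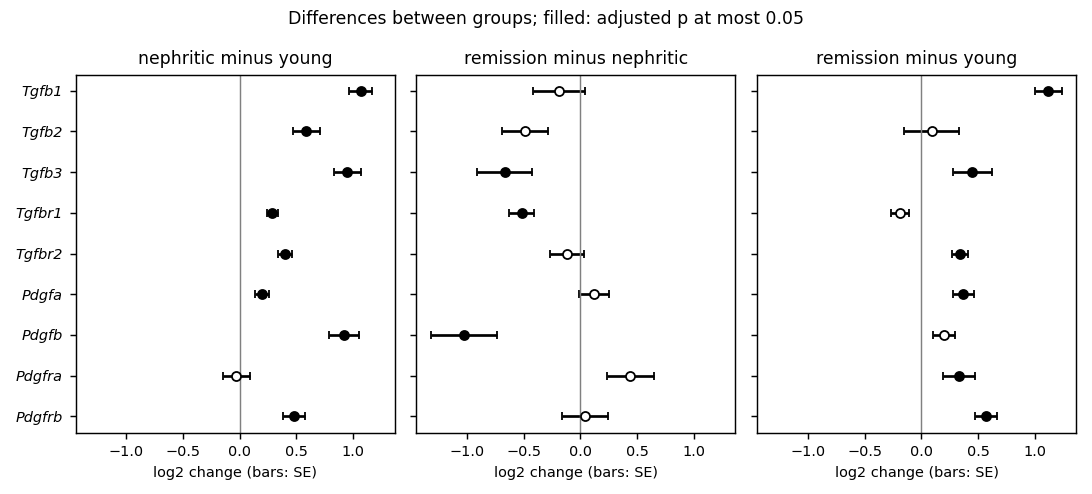
Log2 change of each gene with its SE in 3 comparisons, nephritic minus young (27 and 30 mice), remission minus nephritic (8 and 13 mice of ZT0 and ZT12) and remission minus young (8 and 14 mice of ZT0 and ZT12). Filled points have an adjusted p of at most 0.05 in edgeR's quasi-likelihood test: 8 higher, 3 lower and 6 higher. With the library run taken into account, however, only Tgfb1 of the 6 in the right panel was called in any fit.

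The same 8 calls were made without nephritic ZT8 replicate 3, with set 2 alone, and in every other alternative and leave-out of a mouse for this comparison. Whole kidney RNA was measured, so a change in the number of cells of a type and a change in RNA per cell cannot be told apart. Cell markers moved with the same comparison. All 7 macrophage markers were called higher (median log2 change 2.64), and their sum was 97.0 to 186 CPM in young and 199 to 1360 CPM in nephritic mice. All 4 T cell and all 4 B and plasma cell markers measured were higher, and all 5 proximal tubule markers were lower (median log2 change -0.80). Of 7 mesangial and pericyte markers, 3 were higher and 2 lower, with a sum of 136 to 211 CPM in young and 151 to 271 CPM in nephritic mice. Of 5 fibroblast markers, 3 were higher and 0 lower, with a sum of 39.7 to 121 CPM in young and 44.4 to 233 CPM in nephritic mice. Endothelial markers did not rise: 0 of 6 were higher and 3 were lower. Of 4 platelet markers, 2 were higher and 2 not called. Itga2b, the most abundant, was not higher (median 11.5 CPM in young and 10.8 CPM in nephritic mice, log2 change -0.09, edgeR adjusted p = 0.248). Ppbp and Gp9 were near 0, with young medians of 0.0387 and 0.0372 CPM and nephritic medians of 0.437 and 0.114 CPM, and Pf4 was 1.31 higher on the log2 scale (SE 0.20, edgeR adjusted p = 1.16e-07). The part of these cell types in the changes of the 9 genes was not tested.

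In the rest of the pathway, genes were called in both directions. Of 11 genes for latency and activation of TGF-beta, 5 were higher and 2 lower (median log2 change 0.08). Ltbp2, a latent TGF-beta binding protein of the matrix, rose by 2.38 on the log2 scale (SE 0.20, edgeR adjusted p = 7.26e-15), from a median of 1.71 to 8.28 CPM. Nrros and Lrrc32, which hold latent TGF-beta at the cell surface, rose by 1.67 and 0.50. Itgb8, the beta chain of an integrin that activates latent TGF-beta, fell by 0.83.

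Of 5 co-receptors and other type I receptors, 1 was higher and 3 lower (median -0.21). Bambi, a pseudoreceptor that dampens TGF-beta signalling, fell by 0.48 (SE 0.07, edgeR adjusted p = 3.15e-07). Tgfbr3 (betaglycan) and Acvr1b fell by 0.28 and 0.21, and Acvrl1, a type I receptor of endothelium, rose by 0.23. Among 9 SMADs and their inhibitors, 2 were higher and 2 lower (median -0.01). All 4 changes were small: Smad2 rose by 0.15 and the ubiquitin ligase Smurf1 by 0.19, while the inhibitory Smad7 fell by 0.13 and Smurf2 by 0.27. Of 3 other PDGF genes, the ligand Pdgfc fell by 0.52 (SE 0.06, edgeR adjusted p = 1.4e-10), and Pdgfd and Pdgfrl were not called.

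Genes known to be induced by TGF-beta were nearly all higher in nephritic mice. Of 13 measured, 12 were higher and 1 lower, with a median log2 change of 1.20 against -0.03 over all genes tested. Col1a1, a chain of type I collagen, rose by 2.14 on the log2 scale (SE 0.24, edgeR adjusted p = 1.74e-10), from a median of 16.2 to 60.0 CPM. The collagen gene Col3a1 rose by 1.88, and Tgfbi, a matrix protein named for its induction by TGF-beta, rose by 1.86. Id1, named after its value was seen, fell by 0.84 (SE 0.12, edgeR adjusted p = 6.46e-08). Genes of this list are induced by other signals too.

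Over the day, few of the 9 genes differed. In young mice, Pdgfb and Tgfbr2 differed among the 6 time points (edgeR adjusted p = 0.00429 and 0.0229), 2 of 9 members, whereas 39.4% of all genes tested did. Pdgfb was highest around lights on, with 26.3 to 38.7 CPM (median 29.1) in 7 mice at ZT0 and 35, 28.9, 29.2 and 30.6 CPM at ZT4. It was lowest at lights off, with 20.9 to 27.6 CPM (median 24.7) in 7 mice at ZT12. Values were 28.1, 25.2, 27.2 and 25.7 CPM at ZT8, 27, 26.9, 29.1 and 23.4 CPM at ZT16, and 24.8, 25.8, 26.8 and 24.5 CPM at ZT20. Hence all 4 mice of ZT4 were above all 7 of ZT12, but ranges of most other time points overlapped.

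Tgfbr2 in young mice was high in the light phase and lowest in the middle of the dark phase. Values were 83.5, 95.4, 91.7 and 80.9 CPM at ZT4, 95.2, 88.7, 83.9 and 76.3 CPM at ZT8 and 70.8, 68.4, 74.4 and 71.9 CPM at ZT16. All 4 mice of ZT16 were below those of ZT4 and ZT8. The call was lost without young ZT16 replicate 2 (edgeR adjusted p = 0.0554) and in set 2 alone (0.0595), where Tgfb2 was called in its place (0.0368). Pdgfa (0.0585) and Pdgfrb (0.0888) missed the threshold and passed it without young ZT0 replicate 4 (0.0306 and 0.0368).

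**Figure D3:**
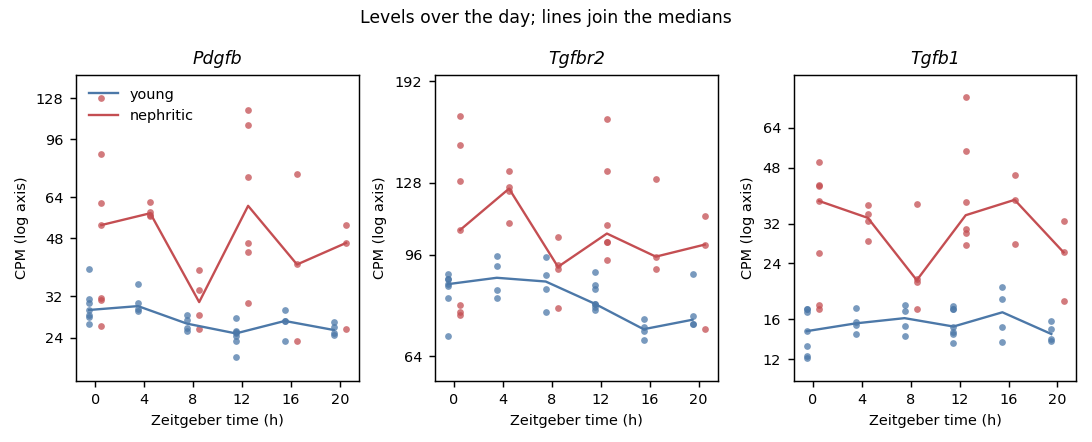
Levels of Pdgfb, Tgfbr2 and Tgfb1 in CPM on a log axis against Zeitgeber time in hours, 1 point per mouse, young (blue) and nephritic (red), shifted sideways for clarity, with lines joining the medians. Young mice form a narrow band at each time, while nephritic Pdgfb spans 26.1 to 128 CPM at ZT0 alone.

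In nephritic mice, 0 of 9 members differed among time points by edgeR's test, against 21.6% of all genes, and 0 had an unadjusted p under 0.05. DESeq2 and limma also called 0, as did edgeR without nephritic ZT8 replicate 3, and set 2 alone called 1 member, Pdgfra (edgeR adjusted p = 0.0325). The spread between nephritic mice at a single time was wide. Pdgfb ranged from 26.1 to 128 CPM at ZT0 and from 30.5 to 118 CPM at ZT12, but from 25.5 to 38.4 CPM in the 4 mice of ZT8. Lcn2, an injury gene described below, had its lowest median at ZT8, 4.27 on the log2 CPM scale against 6.91 at ZT0. Its median was nearly as low at ZT16 (4.8), where Pdgfb ranged from 23.4 to 75.3 CPM in 3 mice. The part of Lcn2 in the time course was not tested.

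A different time course between the groups was called for 0 of 9 members, against 5.99% of all genes. The test was edgeR's on the group by time terms, where 0 members had an unadjusted p under 0.05. DESeq2 and limma also called 0, as did edgeR in each of 57 fits without 1 mouse, nephritic ZT8 replicate 3 included, and set 2 alone called Tgfb2 (edgeR adjusted p = 0.0419). For Pdgfb the adjusted p was 0.259 and for Tgfbr2 0.488, so rhythms seen in young mice are not shown to differ from those of nephritic mice. As values without a test, the log2 difference of Tgfb1 between nephritic and young mice was 1.14 at ZT0 (SE 0.20), 0.58 at ZT8 (SE 0.26) and 1.44 at ZT12 (SE 0.21). Corresponding values of Pdgfb were 0.99 (SE 0.25), 0.23 (SE 0.33) and 1.49 (SE 0.26).

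Nephritic mice differed widely from each other in the level of the injury gene Lcn2, and most of the 9 genes followed that level. Lcn2 encodes neutrophil gelatinase-associated lipocalin, which injured tubules secrete. It ranged from 4.78 to 710 CPM (median 72.6) in nephritic and from 1.55 to 17.4 CPM (median 3.09) in young mice. Across the 27 nephritic mice, Pearson's r between log2 CPM of Lcn2 and of a member was 0.90 for Pdgfb, 0.89 for Tgfbr2, 0.83 for Tgfb1, 0.81 for Tgfb3, 0.80 for Tgfb2, 0.79 for Tgfbr1, 0.76 for Pdgfa and 0.61 for Pdgfrb. Spearman's rho was 0.91, 0.90, 0.86, 0.81, 0.80, 0.79, 0.75 and 0.60 in the same order. Of the 9 relations computed, these 8 passed Benjamini-Hochberg adjustment, with the largest adjusted p for Pdgfrb (0.000911 for r and 0.00128 for rho, 100000 permutations, two-sided). Before adjustment, r had a permutation p of 1e-05, the smallest these permutations can give, for 6 members, and 2e-05 for Tgfb2. Correlation with Lcn2 was common among all genes: with adjustment over 14230 genes of at least 1 CPM, 26.7% had a positive and 24.8% a negative r that passed, and the same 8 members passed (largest adjusted permutation p = 0.00362, for Pdgfrb). Among the r of all genes, Pdgfb lay at the 99.1 percentile, Tgfbr2 at 98.9, Pdgfrb at 84.5 and Pdgfra at 51.7, and the other 5 members between 92.8 and 96.6. Without nephritic ZT8 replicate 3, r was 0.92 for Pdgfb, 0.60 for Pdgfrb and 0.05 for Pdgfra, and 8 members passed.

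Pdgfra stood apart, with r = 0.07 (permutation p = 0.731) and rho = 0.14 (permutation p = 0.472). Without the 2 mice farthest from the median of Lcn2, r was 0.90 for Pdgfb, 0.87 for Tgfbr2, 0.79 for Tgfb1, 0.54 for Pdgfrb and -0.13 for Pdgfra, and the other members had r between 0.71 and 0.84. Set 1 held 5 nephritic mice, too few for a value of its own. Within set 2 (22 mice), r was 0.92 for Pdgfb, 0.87 for Tgfbr2, 0.86 for Tgfb1, 0.84 for Pdgfrb and 0.45 for Pdgfra, which passed there for r (adjusted permutation p = 0.0378) but not for rho (0.0682). With Havcr1, which encodes the kidney injury molecule of proximal tubule, in place of Lcn2, r was 0.92 for Pdgfb, 0.90 for Tgfbr2 and 0.04 for Pdgfra.

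**Figure D4:**
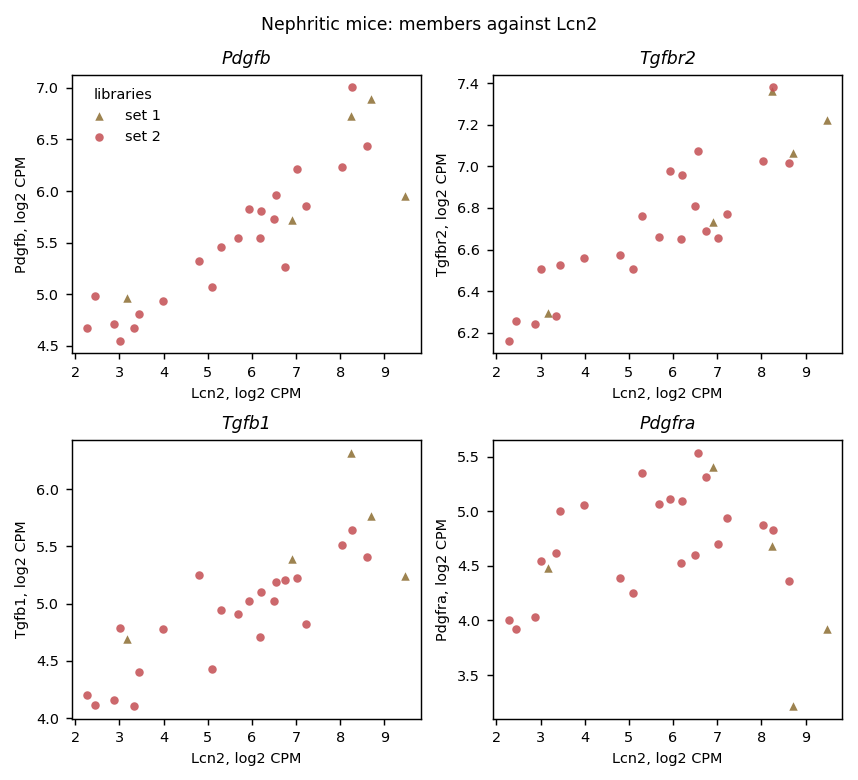
Log2 CPM of Pdgfb, Tgfbr2, Tgfb1 and Pdgfra against log2 CPM of Lcn2 in the 27 nephritic mice, with set 1 libraries as triangles and set 2 libraries as circles. The first 3 genes rise with Lcn2 (r of 0.90, 0.89 and 0.83), and Pdgfra does not (r = 0.07), its 2 lowest values among high-Lcn2 mice being set 1 libraries.

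Members varied together to different degrees within groups. After removal of time point, group and set, and over 57 young and nephritic mice, residual log2 CPM correlated most between Tgfb1 and Tgfbr2 (r = 0.84), Tgfb1 and Pdgfb (0.83) and Tgfbr2 and Pdgfb (0.82). Pdgfra had its highest r with Pdgfrb (0.60) and r between -0.02 and 0.26 with the other 7 members. The genes most like each member, out of 14176 with a mean of at least 1 CPM, were Marcksl1 (r = 0.94) and Arpc1b (0.93) for Tgfb1. Tgfb3 was most like Col6a1 (0.83) and Mmp2 (0.82), a collagen chain and a matrix protease, and Tgfb2 most like Adamts1 (0.77) and Fam53c (0.73). For Tgfbr1 the nearest genes were Ptbp3 (0.90) and Sox4 (0.87), and for Tgfbr2 Cmtm3 (0.91) and Birc3 (0.90). Pdgfb was nearest to Icam1 (0.93), an adhesion molecule of activated endothelium and tubule, and Sbno2 (0.92), and Pdgfa to Ccdc120 (0.79) and Ifnlr1 (0.79). Pdgfrb was nearest to Emilin1 (0.95) and Gucy1a3 (0.93), and Pdgfra to Ddr2 (0.88), a collagen receptor, and Matn2 (0.87). These correlations are descriptions over mice that still differ in the level of Lcn2.

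Remission kidneys had less Pdgfb than nephritic kidneys, by each way of treating the run, and Tgfb1 was not called in any of them. By edgeR's test of 8 remission against 13 nephritic mice of ZT0 and ZT12, with time point as covariate, 3 of 9 members were called. All 3 were lower, beside 19% of all genes tested called lower and 35.7% called in either direction. Remission mice were a library run of their own, so in this fit run and group cannot be told apart. Further fits took up the run. A run covariate was bridged by the 4 mice with libraries in both runs. It was also bridged by 3, without both libraries of nephritic ZT12 replicate 6 (chosen after seeing the data). Here edgeR counted the paired libraries of a mouse separately and had no term for the mouse. The run term thus set the repeats against all originals of their group, with sets 1 and 2 pooled, and mixes run with differences between mice. A limma fit of the same libraries, also chosen after seeing the data, took the paired libraries of a mouse as correlated (0.72 over genes with 4 mice and 0.90 with 3). Last, remission mice were compared with the 2 nephritic repeat libraries within their run.

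Pdgfb was 33.0, 31.3, 33.0 and 29.1 CPM in the remission mice of ZT0 and 19, 28.8, 41.7 and 31.6 CPM in those of ZT12. Nephritic mice had 26.1 to 128 CPM (median 52.7) at ZT0 and 30.5 to 118 CPM (median 60.3) at ZT12, so remission mice overlapped the lower part of the nephritic range. The log2 change was -1.03 (SE 0.29, edgeR adjusted p = 0.0105), and -1.03 (0.0195) without remission ZT12 replicate 4. It was -1.35 (0.00276) with the run covariate bridged by 4 mice and -1.51 (0.00273) with 3. Limma with correlated pairs called it too (adjusted p = 0.00662 with 4 mice, and -0.90, 0.00849 with 3). From original to repeat of the same 4 mice, Pdgfb changed by 0.09, -0.23, -0.03 and 0.27 on the log2 scale. The nephritic repeat libraries had 126 and 56.2 CPM, above all 8 remission mice of the same run. The first is the repeat of nephritic ZT0 replicate 6, whose original had the highest Pdgfb (128 CPM) of all 27 nephritic mice. The second of these is the repeat of nephritic ZT12 replicate 6, which lay nearer to another mouse.

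Tgfb3 was lower by 0.67 on the log2 scale (SE 0.24, edgeR adjusted p = 0.0345), with 2.88 to 6.17 CPM (median 3.69) in remission mice. This call was lost without remission ZT12 replicate 4 (log2 change -0.64, 0.0608) and without any of 9 other mice (highest adjusted p 0.0649). It was also lost in set 2 alone (edgeR adjusted p = 0.0744) and in limma (0.0594). Limma with the run covariate did not make it either (0.0644 with 4 mice and 0.0691 with 3). The call was made by edgeR with the run covariate (-0.88, 0.0380 with 4 mice and -1.02, 0.0336 with 3). Limma with correlated pairs made it too (-0.81, 0.0185 and -0.83, 0.00989). Tgfbr1 was lower by 0.52 (SE 0.11, edgeR adjusted p = 0.00155), and by 0.50 (0.00439) without remission ZT12 replicate 4. However, Tgfbr1 was also lower in the repeat library than in the original of all 4 mice with libraries in both runs. The falls were 0.23, 0.19, 0.42 and 0.70 on the log2 scale. The last was in the repeat of nephritic ZT12 replicate 6, which lay nearer to another mouse. With the run covariate the change of Tgfbr1 was -0.19 (0.343) with 4 mice and -0.21 (0.366) with 3, and it was not called.

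Tgfb1 did not pass, at -0.19 (SE 0.23, edgeR adjusted p = 0.546), with 21.2 to 50.1 CPM (median 32.6) in remission mice. With the run covariate the value was -0.59 (0.0866) with 4 mice and -0.72 (0.0635) with 3, and within the remission run it was -0.65 (0.118). In limma with correlated pairs it was -0.44 (adjusted p = 0.122) with 4 mice and -0.36 (0.171) with 3. Thus Tgfb1 was lower in each of these fits without passing the threshold. Tgfb2 (-0.49, 0.0610), Tgfbr2 (-0.12, 0.544), Pdgfa (0.12, 0.475), Pdgfra (0.44, 0.107) and Pdgfrb (0.04, 0.879) were not called either. Tgfb2 did pass in DESeq2 (-0.5, adjusted p = 0.0382) and in 4 of 21 edgeR fits without 1 mouse (lowest adjusted p 0.0249). Pdgfra passed, as higher, in 1 of these 21 fits (0.0354). Within the remission run, Tgfb2 (-1.15, edgeR adjusted p = 0.00593) and Pdgfrb (-0.77, 0.00646) were called lower than in the 2 nephritic repeats, beside Tgfb3 and Pdgfb. One of these repeats is the doubted library of nephritic ZT12 replicate 6, where Pdgfrb was 88.7 CPM against 45 CPM in the original and Tgfb2 7.95 against 4.56 CPM. Without it, the 1 repeat left was that of nephritic ZT0 replicate 6, whose original had the highest Tgfb2 of the nephritic mice (9.58 CPM). Against this library, Tgfb2 was -1.23 and Pdgfrb -0.81 in remission mice. A single library gives no spread, so only the sizes are given. With the run covariate Pdgfrb was not called, at -0.48 (0.136) with 4 mice and -0.34 (0.359) with 3, nor was Tgfb2, at -0.81 (0.0666) and -0.79 (0.115).

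**Figure D5:**
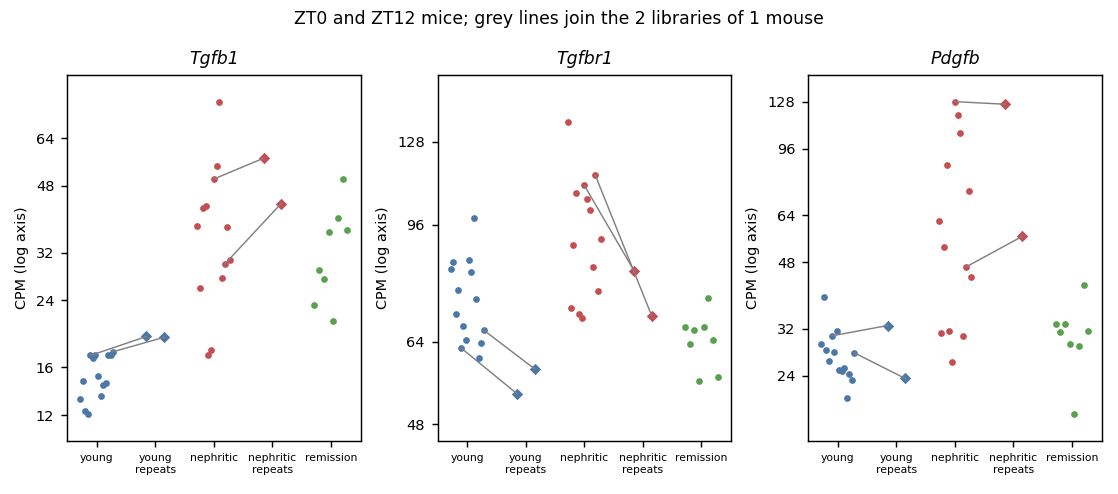
Tgfb1, Tgfbr1 and Pdgfb in CPM on a log axis in the mice of ZT0 and ZT12: original libraries (circles) of 14 young, 13 nephritic and 8 remission mice and repeat libraries (diamonds) of 2 young and 2 nephritic mice from the remission run, with grey lines joining both libraries of a mouse. Tgfbr1 falls from original to repeat in all 4 mice, and Pdgfb of all 8 remission mice lies below both nephritic repeats (126 and 56.2 CPM). The repeat with 56.2 CPM is that of nephritic ZT12 replicate 6, which lay nearer to another mouse than to its own original. The repeat with 126 CPM is from the nephritic mouse with the highest Pdgfb (128 CPM in the original).

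Against young mice, the same remission libraries had higher Tgfb1, Tgfb3, Tgfbr2, Pdgfa, Pdgfra and Pdgfrb, and of these differences only that of Tgfb1 was called in any fit that took up the run. In the fit of 8 remission and 14 young mice, 6 of 9 members were called higher by edgeR's test, against 26.2% of all genes. With the run covariate (4 or 3 mice) and against the 2 young repeats, 0 of 9 members were called in each case. The number with an unadjusted p under 0.05 was 1, 1 and 2, and these fits called 13.1%, 9.52% and 3.88% of all genes. These edgeR fits do not use the pairing of libraries by mouse. In limma with the paired libraries correlated, 1 of 9 members, Tgfb1, was called with 4 mice and with 3, beside 18.5% and 23.7% of all genes, and limma without the pairing called 0 in both. DESeq2 and limma, run without a run covariate, called 6 members each.

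Tgfb1 had the largest difference, with 23.4, 28.9, 27.3 and 36.3 CPM in remission mice of ZT0 and 21.2, 39.5, 50.1 and 36.7 CPM in those of ZT12. All 8 were above the highest of 30 young mice (20.2 CPM) and above both young repeats of the same run (19.3 and 19.2 CPM). The log2 change was 1.12 (SE 0.12, edgeR adjusted p = 1.07e-07), and 1.11 (4.25e-07) without remission ZT12 replicate 4. With the run covariate it was 0.73 (0.0647) with 4 mice and 0.66 (0.160) with 3, and against the young repeats 0.77 (0.146). In limma with correlated pairs it was 0.78 (SE 0.22, adjusted p = 0.00991) with 4 mice and 0.88 (SE 0.20, 0.00136) with 3. Within the 4 mice, Tgfb1 was higher in the repeat than in the original library by 0.17, 0.12, 0.18 and 0.53 on the log2 scale, the last in the doubted library.

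Pdgfrb was 41.7 to 64.9 CPM (median 53.7) in remission mice, 4 of 8 of which were above the young range, with a log2 change of 0.57 (SE 0.10, edgeR adjusted p = 6.05e-05) that became 0.14 (0.785) with the run covariate of 4 mice, 0.26 (0.643) with 3 and 0.46 (0.123) within the remission run. In limma with correlated pairs it was 0.21 (0.550) and 0.43 (0.0884). Tgfbr2 (0.34, edgeR adjusted p = 0.000268), Pdgfa (0.37, 0.00170), Tgfb3 (0.45, 0.0321) and Pdgfra (0.33, 0.0466) became 0.19 (0.532), -0.04 (0.918), 0.32 (0.594) and 0.07 (0.902) with 4 mice. With 3 mice they were 0.17, -0.01, 0.23 and 0.22, and within the run 0.32, 0.07, 0.55 and 0.26, none of them called. The call of Pdgfra was lost in 14 of 22 fits without 1 mouse (highest adjusted p 0.101), among them that without remission ZT12 replicate 4 (0.32, 0.0727), and the call of Tgfb3 in 3 of 22 (highest 0.0906). Pdgfb (0.20, edgeR adjusted p = 0.0967), Tgfb2 (0.09, 0.767) and Tgfbr1 (-0.19, 0.0512) were not called, and Pdgfb passed without remission ZT12 replicate 1 (0.29, 0.00744) or without young ZT0 replicate 6 (0.24, 0.0331). Against the young mice of set 2 alone, Tgfb2 was called (0.49, edgeR adjusted p = 0.0111) and Tgfbr1 was not (-0.04, 0.59). With both sets and no set covariate, Tgfbr1 passed as lower without any 1 of 6 mice (lowest adjusted p 0.0258). Most of these were young mice of set 2, where Tgfbr1 was lower than in set 1.

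Of the 13 genes induced by TGF-beta, 8 were lower in remission than in nephritic mice and 7 were higher than in young mice, by fits without a run covariate in which 19% and 26.2% of all genes were called in these directions. Id1 went the other way, 0.92 higher than in nephritic mice (edgeR adjusted p = 0.00295). Col3a1 fell by 1.49 on the log2 scale against nephritic mice (edgeR adjusted p = 0.0183), to a median of 48.4 CPM, and was 0.64 above young mice (0.0178). Col1a1 fell by 1.21 (0.0468), and Tgfbi was not called (-0.47, 0.130). Macrophage markers summed to 225 to 819 CPM in remission mice, 7 of 7 were called higher than in young mice and 1 of 7 lower than in nephritic mice. All 6 endothelial markers were higher in remission than in young mice, with a sum of 384 to 510 CPM against 242 to 418 CPM. The part of these cells in the remission values of the 9 genes was not tested.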

How the data were processed

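The authors aligned reads (150 bp) to mm10 with the Burrows-Wheeler algorithm per the methods, and the submitters' processing notes name HISAT. They counted unique reads on exons and splice junctions with at most 2 mismatches and deposited raw counts per gene symbol, not normalized. Each library lists 24538 symbols, of which 15 empty in every library were left out, and no column was left unassigned. Groups, time points and repeats came from the labels, and the 3 library sets from the titles.

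Genes with at least 100 counts over a fit were kept. Counts were scaled with TMM factors and tested with edgeR 4.0.16 (R 4.3.3, quasi-likelihood F test, Benjamini-Hochberg over all genes tested, adjusted p of at most 0.05). Scripts were tested on simulated data. CPM used TMM-scaled library sizes, and log2 CPM a prior count of 2. Correlations used 100000 permutations, two-sided. DESeq2 1.42.0 and limma 3.58.1 were alternatives, beside RLE size factors, no filter, set 2 alone, no set covariate, a 24 h cosine, repeats in place of originals, run covariates (also in limma with the libraries of a mouse correlated) and leaving out each mouse.

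All 9 members were named, with up to 4 genes past the threshold with the largest change from each companion list and the 2 genes most like each member, apart from 1 gene that is not reported here. Members and lists were chosen with earlier results of these data known. Igj, listed here as Jchain, and Ccn2, listed as Ctgf, were counted once. Positions came from GENCODE M21, and promoter sequences, found for 6 of 9 members, from RefSeq (GRCm38.p6). Microarrays and C57BL/6 libraries were not used here.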

Additional observations from a re-analysis of the deposited data

Results flagged for a closer look

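Of 108 groups of 4 to 10 mice of 1 gene at 1 time point, 7 had a highest or lowest mouse unusually far from the others (Dixon's test at 95%), and chance flags about 1 in 20 groups. Tgfb2 was 11.0 CPM in young ZT12 replicate 5, against 1.86 to 5.63 CPM in the other 6 mice. In nephritic ZT8 replicate 1, Tgfb2 was 3.29 CPM, against 3.82 to 3.91 CPM in the other 3, a small gap in a tight group. Tgfbr1 was 86.9 CPM in nephritic ZT8 replicate 3, the mouse whose Arntl level did not match its time label, against 65.5 to 68.8 CPM in the other 3. Tgfbr2 was 69.4 CPM in young ZT0 replicate 4, against 80.8 to 88.8 CPM, and the same mouse had 10.5 CPM of Pdgfa, against 13.1 to 14.4 CPM in the other 6. Tgfbr2 was 88.8 CPM in young ZT20 replicate 3, against 72.8 to 75.3 CPM. Pdgfb was 38.7 CPM in young ZT0 replicate 6, a set 1 mouse, against 26.3 to 31.5 CPM.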

How the results depend on the processing

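The 8 calls in nephritic against young mice were made in all 8 alternatives and in each of 57 fits without 1 mouse. No paired analysis was possible because the labels give the mice no replicate numbers shared between groups. Over time, the number of members called in young mice was 2 to 3 in the alternatives and 1 to 4 without 1 mouse each, with 4 without young ZT0 replicate 4 and 1 without young ZT16 replicate 2. In set 2 alone, 1 member was called over time in nephritic mice (Pdgfra) and 1 for a different time course (Tgfb2), where 0 were called with both sets. Leaving out each mouse left 0 calls over time in nephritic mice in all 27 fits, and 0 for the different time course in all 57 (added after seeing the data). For Lcn2, 8 members passed without nephritic ZT8 replicate 3.

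In remission against nephritic mice, 3 calls became 2 to 4 with other scaling, tools, filter, set or run and 2 to 4 without 1 mouse each. In fits added after seeing the data, limma with a run covariate called 1 with 4 mice and 1 with 3 (Pdgfb), limma with correlated pairs 2 and 2 (Pdgfb and Tgfb3), and the comparison within the run without the doubted repeat 5. In remission against young mice, 6 calls became 0 with a run covariate bridged by 4 mice, 0 with 3 mice (chosen after seeing the data), 0 and 0 by limma, 1 and 1 (Tgfb1) by limma with correlated pairs and 0 within the remission run, and 4 to 7 without 1 mouse each. Among values called in either fit, signs turned for Pdgfa in remission against young mice, to -0.04 with 4 bridging mice and -0.01 with 3 (-0.06 and -0.03 by limma), and for Pdgfrb in remission against nephritic mice, to -0.77 within the remission run and -0.81 without the doubted repeat. Values not called turned more often. In the 3 edgeR fits on the run (4 mice, 3 mice, within the run), at least 1 value had another sign for 3 of 9 members against nephritic mice (Pdgfa -0.43 to -0.30, Pdgfrb -0.77 to -0.34 and Pdgfra -0.07) and for 4 of 9 against young mice (Tgfbr1 0.14 to 0.22, Pdgfb -0.16 to -0.05, Tgfb2 -0.10 to -0.06, and Pdgfa). With set 2 alone, Tgfb1 turned to 0.07 against nephritic mice. The fit within the run has 2 repeat libraries on 1 side, so its calls rest on few mice. The cause of the other changes was not tested. Tgfb2 and Tgfb3 had the fewest reads, but their SE in nephritic against young mice (0.12 each) was no larger than that of Pdgfb (0.13).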
